A study of Drosophila melanogaster with 8 samples.

Results

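The presynaptic active zone is the patch of membrane where synaptic vesicles fuse to release neurotransmitter, and a dense protein scaffold there holds voltage-gated calcium channels close to vesicles that are ready to fuse. In the fly this scaffold is built around the T-bar, an electron-dense structure made largely of Bruchpilot, and vesicle release fails or is weakened when its parts are missing. Transmembrane adhesion proteins align the scaffold with the postsynaptic cell, and early assembly factors set where a new site forms. The RNA levels of 9 genes of this scaffold were examined: *brp*, *Rbp*, *Rim*, *Fife*, *unc-13*, *RhoGAP100F*, *Liprin-alpha*, *Nrx-1* and *CASK*. They were chosen by gene symbol from the 23932 features of the count table, and all 9 were found and passed the filter on low counts, which left 9788 features.

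The brains were dissected from flies 0 to 1 day old, male and female pooled, and their RNA was sequenced. In the EmcOE brains (4 samples) *elavC155-Gal4*, a driver active in neurons, expressed *UAS-emc*, and the Control brains (4 samples) came from the same driver crossed to *white**, so the driver was present in both groups and the groups differ in the crossed line as well as in the transgene. Extramacrochaetae (Emc) binds the E-protein Daughterless (Da) and keeps it from DNA. The comparison asks which transcripts in the young brain change when neurons express extra *emc* to hold Da back. The study states that Emc could also form dimers, unable to bind DNA, with other basic helix-loop-helix proteins of neurons, the partners of Da. The driver is stronger in the mushroom bodies than elsewhere and is known to start before adulthood, each group is a single cross, and RNA of all cell types of the brain was pooled.

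Totals were 41619980, 21400830, 22171168 and 21529552 counts in EmcOE replicates 1 to 4, against 20751513 to 22776791 in the Control replicates, so EmcOE replicate 1 was sequenced deepest. All values given as normalised counts are counts scaled to a common library size with TMM factors. *emc* itself had 6038, 6289, 5874 and 6020.2 normalised counts in EmcOE brains, against 4951, 4786, 5165 and 4961 in Control brains (log2 fold change 0.29, SE 0.043, edgeR adjusted p = 0.00246). The groups did not overlap, and *da* differed little (log2 fold change 0.0029, adjusted p = 0.977). Calls of up or down needed an edgeR adjusted p no higher than 0.05 together with a log2 fold change beyond 0.2 or -0.2, by which 349 features were up and 501 down. Scaling by total counts instead gave 413 up and 272 down.

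All 9 scaffold genes had a higher mean in EmcOE brains than in Control brains, with log2 fold changes of 0.090 to 0.27 and a median of 0.16. *CASK* alone was called up (1 of 9, 11.1%), against 3.57% of all features tested, and 0 of 9 were called down, against 5.12% of all features. At an unadjusted edgeR p of at most 0.05, 5 of the 9 were higher and 0 were lower, and 12.8% of all features were higher at that level. Over all features the median log2 fold change was 0.013, and 53% were higher in EmcOE brains. All 4 EmcOE samples lay above all 4 Control samples for *CASK* alone, a pattern that 8.51% of all features shared. In bulk brain RNA, a change in the share of cells of a type and a change in RNA per cell cannot be told apart.

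**Figure D1:**
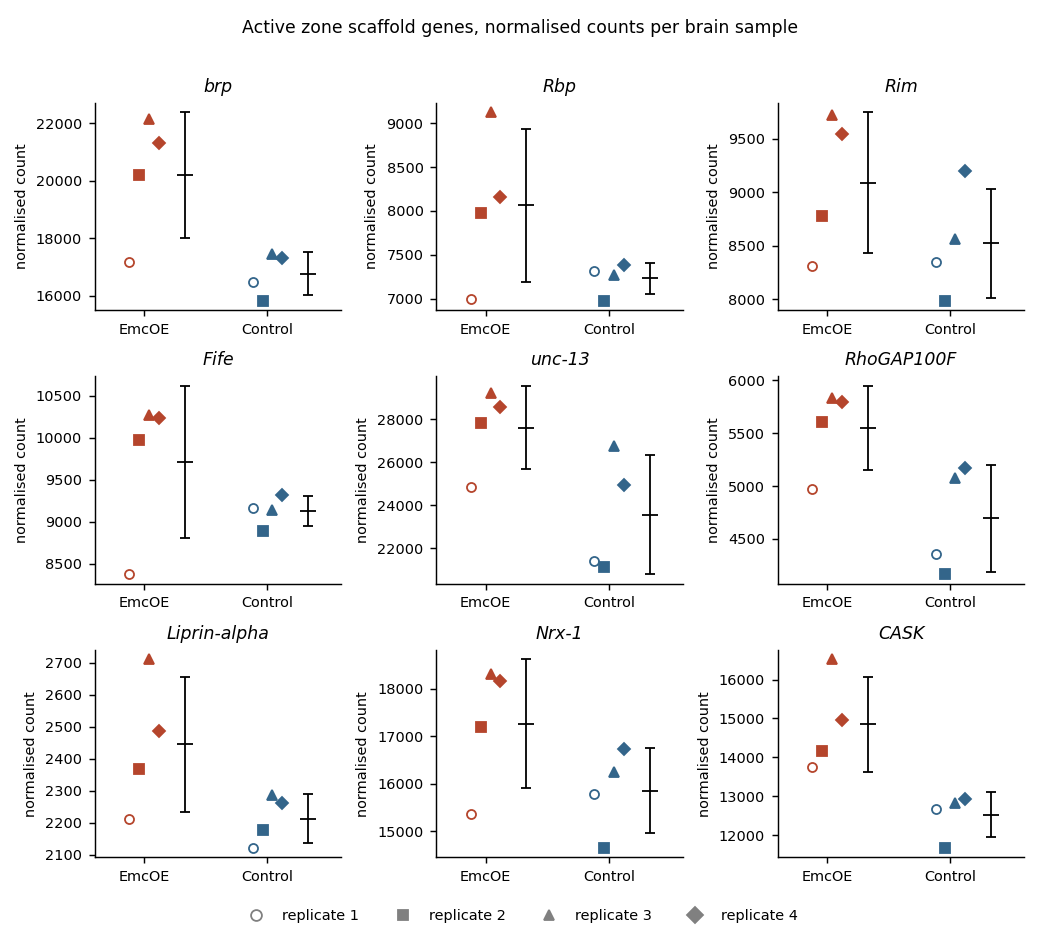
Normalised counts (y axes, which differ between panels and do not start at 0) of the 9 scaffold genes in the 4 EmcOE and the 4 Control brain samples, with one symbol per replicate number and the mean ± SD beside each group. EmcOE replicate 1 (open circles) is the lowest EmcOE sample in all 9 panels, and only *CASK* has groups that do not overlap.

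The central scaffold proteins of the T-bar were taken first. *brp* (FBgn0259246) encodes Bruchpilot, the ELKS/CAST-family coiled-coil protein that forms the T-bar. It lies at chromosome 2R, 9503765 to 9541565 on the plus strand (BDGP6.32), and its exons add up to 13350 bases. *brp* had 17154, 20202, 22162 and 21318 normalised counts in EmcOE brains, against 16462, 15825, 17443.5 and 17319 in Control brains. EmcOE replicate 1 lay inside the Control range, and the other 3 EmcOE samples lay above it. The means were 20209 ± 2189 in EmcOE brains and 16762 ± 762 in Control brains (SD, n = 4 each), and the log2 fold change of 0.27 (SE 0.077) was the largest of the 9 but missed the threshold (edgeR adjusted p = 0.0527). *brp* passed it with DESeq2 (adjusted p = 0.00769), with total counts (edgeR adjusted p = 0.0333), with no filter on low counts (edgeR adjusted p = 0.0324) and without EmcOE replicate 1 (edgeR adjusted p = 0.00535), and without any one of the other 7 samples the edgeR adjusted p was 0.0681 to 0.144.

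*Rbp* (FBgn0262483) encodes the RIM-binding protein, which ties calcium channels to the scaffold, and has 9119 bases of exon at 3R, 15374635 to 15402543 on the plus strand. It had 6997, 7972, 9130.2 and 8165 normalised counts in EmcOE brains, against 7310.1, 6977, 7263 and 7379 in Control brains. The Control samples were close together, with an SD of 176 against 875 in EmcOE brains, and EmcOE replicate 1 lay among them. The log2 fold change was 0.16 (SE 0.071, edgeR adjusted p = 0.198).

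*Rim* (FBgn0053547), whose product binds Rab3 on vesicles as well as calcium channels, has 14257 bases of exon at 3R, 17872748 to 17916578 on the minus strand. It had 8310.1, 8784, 9723 and 9547 normalised counts in EmcOE brains, against 8346, 7990.1, 8564 and 9197 in Control brains. Both groups covered much of the same range, and the log2 fold change was 0.093 (SE 0.063, edgeR adjusted p = 0.397). *Fife* (FBgn0264606) encodes a protein related to Piccolo and RIM that promotes vesicle docking, and has 9680 bases of exon at 3L, 2655415 to 2711690 on the minus strand. *Fife* had 8377, 9974, 10275 and 10236 normalised counts in EmcOE brains, against 9163, 8888, 9135 and 9314 in Control brains. Its EmcOE replicate 1 lay below all Control samples while the other 3 lay above them. The log2 fold change, 0.090 (SE 0.065, edgeR adjusted p = 0.424), was the smallest of the 9.

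*unc-13* (FBgn0025726) encodes the priming factor that readies docked vesicles for fusion, the fly counterpart of Munc13. Its 22598 bases of exon, the most of the 9 genes, lie at chromosome 4, 867824 to 912331 on the minus strand. *unc-13* had 24831, 27806, 29233 and 28572 normalised counts in EmcOE brains, against 21388, 21122, 26768 and 24960.4 in Control brains. The Control samples fell apart into a lower pair (replicates 1 and 2) and a higher pair, with a coefficient of variation of 11.7%, the largest among the Control values of the 9 genes. EmcOE replicate 1 lay below the higher pair, and the log2 fold change was 0.23 (SE 0.085, edgeR adjusted p = 0.120).

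The early assembly factors were *RhoGAP100F* (FBgn0039883), which encodes Syd-1, and *Liprin-alpha* (FBgn0046704), whose product works with Syd-1 to seed new active zones. *RhoGAP100F* has 13106 bases of exon at 3R, 31812609 to 31846570 on the plus strand. It had 4975, 5603, 5834 and 5797 normalised counts in EmcOE brains, against 4359, 4165, 5079 and 5172 in Control brains. As for *unc-13*, Control replicates 1 and 2 were the low ones, and EmcOE replicate 1 lay below Control replicates 3 and 4. The log2 fold change was 0.24 (SE 0.080, edgeR adjusted p = 0.0873). *RhoGAP100F* passed the threshold with DESeq2 (adjusted p = 0.0417), with total counts (edgeR adjusted p = 0.0369) and without EmcOE replicate 1 (edgeR adjusted p = 0.0402). Without any other single sample the edgeR adjusted p was 0.0581 to 0.231. *Liprin-alpha* has the shortest exons of the 9 genes (6208 bases) at 2L, 6723903 to 6732766 on the plus strand. It had 2213, 2367, 2710.3 and 2488 normalised counts in EmcOE brains, against 2121, 2177, 2287 and 2263 in Control brains. EmcOE replicate 1 again lay inside the Control range, and the log2 fold change was 0.14 (SE 0.062, edgeR adjusted p = 0.177).

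*Nrx-1* and *CASK* link the scaffold to the membrane. *Nrx-1* (FBgn0038975) encodes the presynaptic adhesion protein neurexin, which binds neuroligins across the cleft, and has 10699 bases of exon at 3R, 22468512 to 22486969 on the plus strand. *Nrx-1* had 15364, 17198, 18314 and 18157 normalised counts in EmcOE brains, against 15777, 14653, 16252 and 16741.5 in Control brains (log2 fold change 0.12, SE 0.066, edgeR adjusted p = 0.282). EmcOE replicate 1 lay inside the Control range and the other 3 above it.

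*CASK* (FBgn0013759) encodes a membrane-associated guanylate kinase scaffold that binds the tail of neurexin, and has 9545 bases of exon at 3R, 21783400 to 21822674 on the minus strand. It had 13761, 14153, 16520.1 and 14959.9 normalised counts in EmcOE brains, against 12662, 11669, 12836 and 12938.5 in Control brains. Every EmcOE sample was above every Control sample, with EmcOE replicate 3 the highest. The means were 14848.5 ± 1221 in EmcOE brains and 12526.5 ± 583 in Control brains (SD, n = 4 each), and the log2 fold change was 0.25 (SE 0.064, edgeR adjusted p = 0.0382). The adjusted p was 0.0224 without EmcOE replicate 1, and leaving out any of the other 7 samples raised it above the threshold, to 0.109 at most.

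EmcOE replicate 1 was the lowest EmcOE sample for all 9 genes, so the values were also taken without it, a choice made after seeing the data. *brp*, *Rbp*, *RhoGAP100F* and *CASK* were then called up (4 of 9), against 4.81% of features tested without that sample. EmcOE replicates 2 to 4 lay above all Control samples for 8 of the 9 genes, all but *Rim*, against 14.2% of features. The sample left out was chosen as the lowest for these genes, which raises their EmcOE means. It was not chosen so for features at large, so these shares are not a like comparison. It was also the EmcOE sample with the lowest median of other features of at least 8 kb (-0.076). The shares among long features without that sample were not taken. The median log2 fold change of the 9 genes was 0.22 in these 7 samples. In each fit that left out one of the other 7 samples instead, 0 of 9 genes were called, against 2.08% to 3.02% of features called up.

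**Figure D2:**
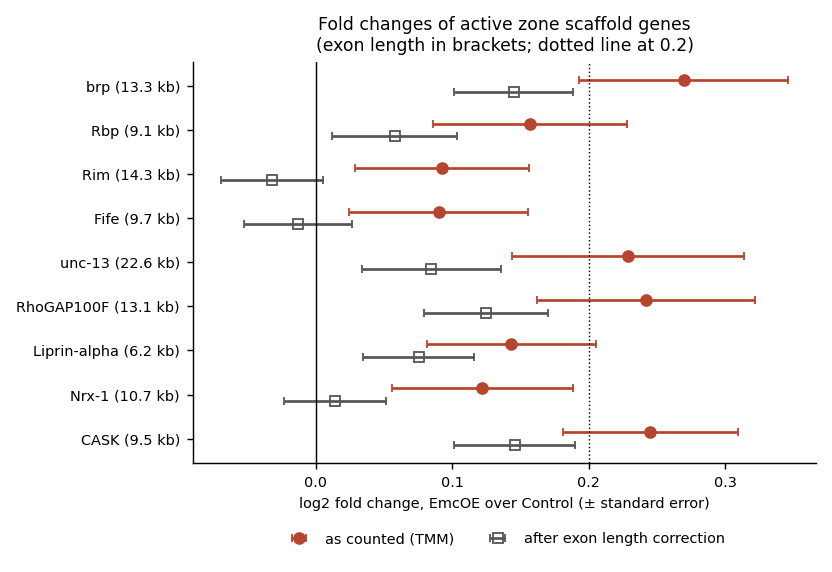
Log2 fold change, EmcOE over Control, with its standard error for each scaffold gene (exon length in brackets), as counted with TMM factors (filled circles) and after correction for exon length (open squares). All 9 circles lie to the right of 0, between 0.090 and 0.27, and after the correction *Rim* and *Fife* lie just left of 0 at -0.032 and -0.013.

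These are long genes, and long features as a class were higher in EmcOE brains. Of the 489 tested features with at least 8 kb of exon, 80.8% had a higher mean in EmcOE brains, the median log2 fold change was 0.12, and 9.82% were called up. Of the 9 scaffold genes 8 belong to this class, and *Liprin-alpha* belongs to the class of 4 to 8 kb (1663 features), in which 68.8% were higher with a median of 0.066. Among the 3009 features of 1 to 2 kb, 43.3% were higher with a median of -0.027. The scaffold genes therefore stood in a class in which most features had positive fold changes. *brp*, *RhoGAP100F*, *CASK* and *unc-13* had log2 fold changes at least 0.1 above the class median, while *Nrx-1* lay at it and *Rim* and *Fife* below it. The class has no upper limit of length, and *unc-13* has the longest exons of the 9 genes (22598 bases).

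**Figure D3:**
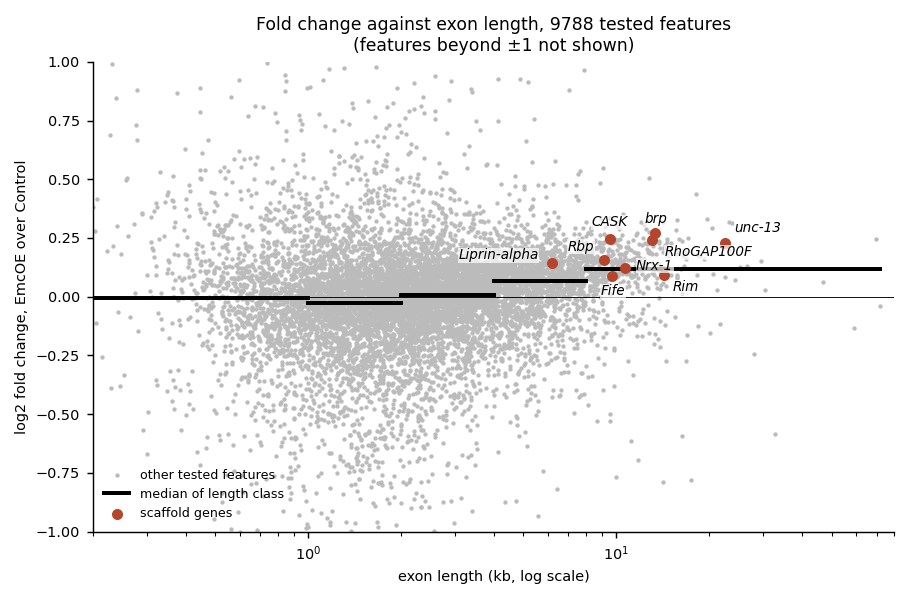
Log2 fold change, EmcOE over Control (y axis), against exon length in kb on a log axis for tested features (grey), with the median of each of 5 length classes (black bars) and the 9 scaffold genes (red). The class medians run from -0.027 at 1 to 2 kb to 0.12 at 8 kb and more, and the scaffold genes scatter around and above the last bars.

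The same was looked at sample by sample, as log2 ratios to the mean of all 8 samples. The median of the other features of at least 8 kb was -0.076, 0.061, 0.12 and 0.12 in EmcOE replicates 1 to 4, against -0.091, -0.12, -0.023 and 0.0020 in Control replicates 1 to 4. The median of the 9 scaffold genes was -0.081, 0.065, 0.20 and 0.14 in the EmcOE samples, against -0.10, -0.17, -0.037 and -0.026 in the Control samples. Both medians were low in EmcOE replicate 1 and in Control replicates 1 and 2, and high in EmcOE replicates 3 and 4. Features under 1 kb had medians of 0.15, -0.026, -0.11 and -0.063 in EmcOE samples, against -0.027, 0.021, 0.054 and 0.044 in Control samples, so they were highest in the sample in which the long features of EmcOE brains were lowest.

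**Figure D4:**
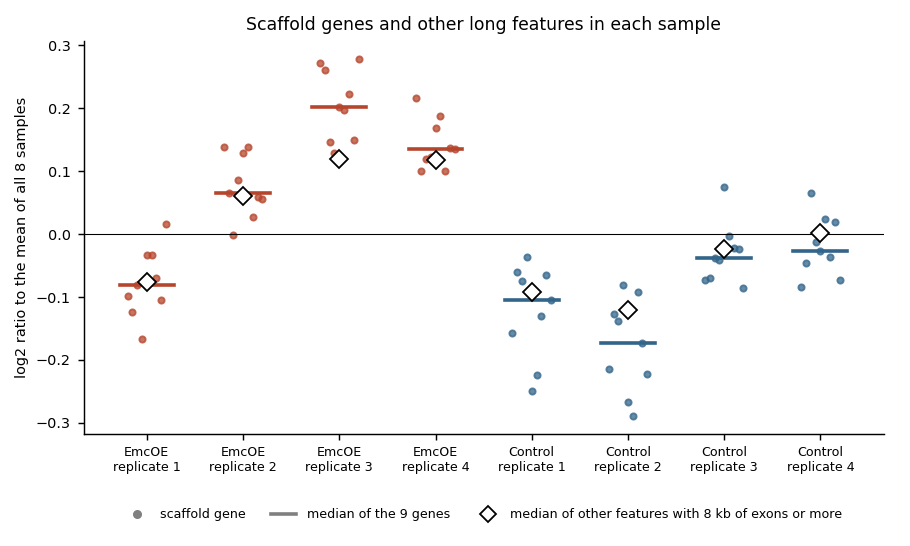
Log2 ratio to the mean of all 8 samples (y axis) for the 9 scaffold genes (dots, with their median as a bar) and the median of all other features with at least 8 kb of exon (diamonds), in each EmcOE and each Control sample. The bars and diamonds stand at nearly the same height in EmcOE replicate 1 (-0.081 and -0.076) and are furthest apart, by under 0.1, in EmcOE replicate 3 (0.20 and 0.12).

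When each sample's trend of log ratios on exon length was removed before the test, the median log2 fold change of these 9 was 0.075. Of the 9, 0 were called up, against 3.28% of all features. *CASK* had a log2 fold change of 0.15 (edgeR adjusted p = 0.0641) and *brp* one of 0.15 (adjusted p = 0.0600), and *Nrx-1* was at 0.014 (adjusted p = 0.845). *RhoGAP100F* was at 0.12 (adjusted p = 0.112) and *unc-13* at 0.085 (adjusted p = 0.326). *Liprin-alpha* was at 0.075 (adjusted p = 0.280) and *Rbp* at 0.058 (adjusted p = 0.458). *Rim* and *Fife* were slightly lower in EmcOE brains after the correction (log2 fold changes -0.032 and -0.013, adjusted p = 0.640 and 0.872). The part that exon length plays in the values of the single genes was not tested beyond this correction.

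A ratio of 2 genes within a library is free of library size scaling. Of the 36 pairs among the 9 genes, 12 had log2 ratios that did not overlap between EmcOE and Control samples, against 16.8% of all pairs of tested features and 24.0% of pairs of features with at least 8 kb of exon. The 36 pairs share genes and are not independent. Some of the 12 were only just apart. *CASK* over *Liprin-alpha* was 2.580 in EmcOE replicate 2 and 2.577 in Control replicate 1. *CASK* over *Rbp* was 0.828 in EmcOE replicate 2 and 0.822 in Control replicate 3. In each of these 12 pairs *brp*, *CASK* or *RhoGAP100F* was the gene that was relatively higher in EmcOE brains, set against *Fife*, *Rim*, *Nrx-1*, *Rbp* or *Liprin-alpha*. *brp*, *CASK* and *RhoGAP100F* had the largest log2 fold changes of the 9 genes, so the direction of these ratios restates those values. The widest difference was that of *brp* over *Fife*, with log2 ratios of 1.03, 1.02, 1.11 and 1.06 in EmcOE brains, against 0.85, 0.83, 0.93 and 0.89 in Control brains. *Fife* is related to RIM, and *brp* over *Rim* differed alike, by 0.17, with log2 ratios of 1.05 to 1.20 in EmcOE brains and 0.91 to 1.03 in Control brains. For *brp* over *Fife* EmcOE replicate 1 lay within the range of the other EmcOE samples, whereas for *brp* over *Rim* it was the lowest EmcOE sample at 1.05, next to Control replicate 3 at 1.03.

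Other pairs kept nearly the same ratio in both groups. *brp* over *CASK* had mean log2 ratios of 0.44 ± 0.092 in EmcOE brains and 0.42 ± 0.030 in Control brains (SD, n = 4 each), and *Rim* over *Fife* had -0.094 ± 0.071 in EmcOE brains and -0.100 ± 0.060 in Control brains. *RhoGAP100F* over *unc-13*, an assembly factor and the priming factor, was the steadiest of all in EmcOE brains (-2.31 ± 0.010, against -2.33 ± 0.056 in Control brains). Relative to the mean of the other 8 genes, *brp* was higher in EmcOE brains with no overlap (by 0.10 on the log2 scale). *Nrx-1* was lower with no overlap (by -0.061), while the other 7 genes overlapped. The groups came close, at 1.007 in EmcOE replicate 1 and 0.991 in Control replicate 1 for *brp*. For *Nrx-1* they came to 0.852 in EmcOE replicate 4 and 0.865 in Control replicate 2. The share of all features that separate on such a measure was not taken.

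**Figure D5:**
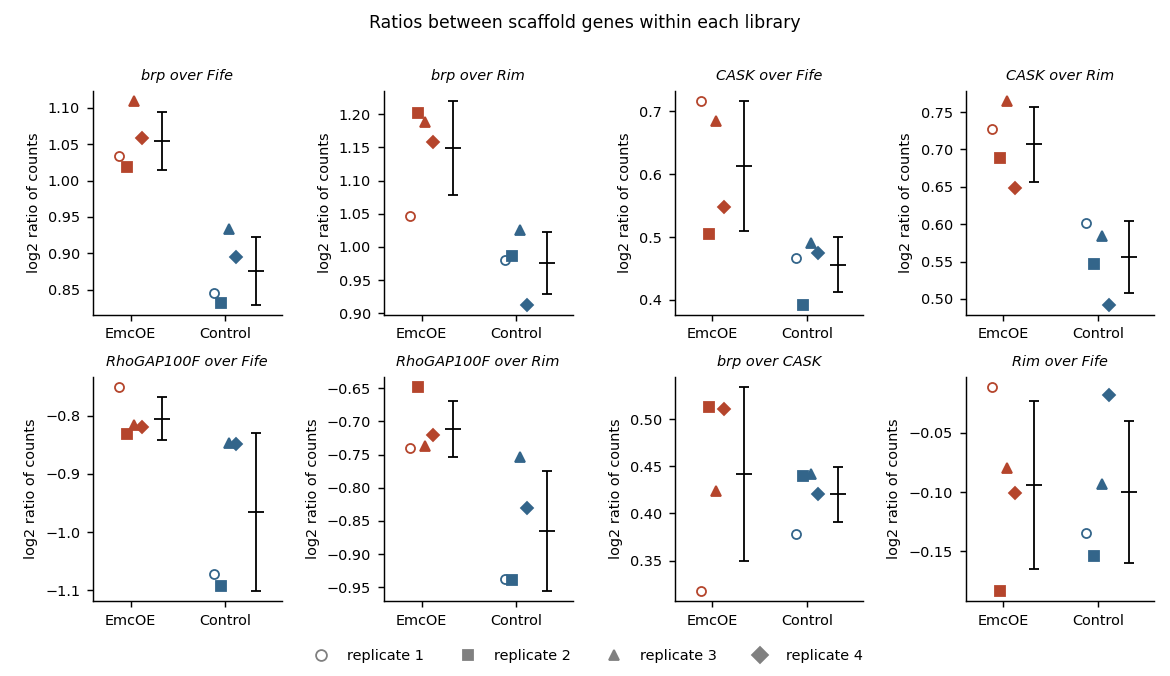
Log2 ratio of the counts of 2 scaffold genes within each library (y axes, which differ between panels) for 8 of the 36 pairs, with EmcOE left of Control, one symbol per replicate number and the mean ± SD beside each group. The 6 pairs of *brp*, *CASK* or *RhoGAP100F* over *Fife* or *Rim* do not overlap between the groups, whereas *brp* over *CASK* and *Rim* over *Fife* do.

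The 9 genes varied together within the groups. With the group means removed, the correlation over the 8 samples between any pair of them was 0.587 (*Rbp* with *unc-13*) to 0.958 (*unc-13* with *RhoGAP100F*), with a median of 0.834. The points share libraries and depth, and these genes share long exons. Over the 8 samples the median log2 ratio of the 9 genes followed that of the other features of at least 8 kb (Pearson r = 0.981). Correlations between pairs of other long features were not taken. Among the 3667 other features with a mean of at least 1000 normalised counts, the ones whose pattern over the 8 samples was most like the mean of the 9 genes were *mtd* (r = 0.993), *Camta* (r = 0.991), *CG11873* (r = 0.990), *CG15431* (r = 0.989) and *sli* (r = 0.988). They have 13741, 10086, 12599, 6408 and 9618 bases of exon in that order, log2 fold changes of 0.13, 0.20, 0.23, 0.19 and 0.17, and none was called. In all, 273 of the 3667 features had an r over 0.9.

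Levels of different genes were compared per kb of exon. In EmcOE brains *Nrx-1* was highest with 1613 ± 127 normalised counts per kb, followed by *CASK* with 1556 ± 128 and *brp* with 1514 ± 164, against 1482 ± 83.5, 1312 ± 61.1 and 1256 ± 57.1 in Control brains (SD, n = 4 each). These 3 neighbours differed by less than their spread in EmcOE brains, while in Control brains *Nrx-1* stood above the other two. Next came *unc-13*, with 1222 ± 86 in EmcOE brains and 1043 ± 122 in Control brains, and *Fife*, with 1004 ± 93.2 in EmcOE brains and 942.7 ± 18.2 in Control brains, a pair that changed places between samples. *Rbp* followed with 884.5 ± 95.9 in EmcOE brains and 793.1 ± 19.4 in Control brains. *Rim* had 637.6 ± 46.4 in EmcOE brains and 597.9 ± 35.6 in Control brains, and in every sample *Rbp* was the sixth and *Rim* the seventh of the 9 genes. The assembly factors were lowest, *RhoGAP100F* above *Liprin-alpha* in all 4 EmcOE samples but only in replicates 3 and 4 of Control, with 423.6 ± 30.3 for *RhoGAP100F* and 393.8 ± 33.8 for *Liprin-alpha* in EmcOE brains, against 358.1 ± 38.6 and 356.3 ± 12.3 in Control brains.

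Exon length as counted includes bases shared with other features, to which pairs could not be assigned uniquely. In *CASK* 28% of exon bases are shared, with *lncRNA:CRG* (2669 bases on the same strand, 0 counts in all samples). In *unc-13* 28.4% are shared, mainly with *asRNA:CR43425* on the opposite strand (3528 bases, 0 counts), and in the other 7 genes at most 3.59% are shared. All exon bases of *lncRNA:CRG* and of *asRNA:CR43425* are shared in this way, so their 0 counts do not show whether they were expressed. Counts were made without strand, so on the shared bases reads of *unc-13* and of its antisense features cannot be told apart. One antisense feature, *asRNA:CR44029*, shares 705 bases with *unc-13* and had counts of its own. Its means were 1261.5 normalised counts in EmcOE brains and 990.7 in Control brains (log2 fold change 0.35, edgeR adjusted p = 0.0679). Per kb of unshared exon, a scale added after seeing the data, *CASK* was highest with 2159.5 ± 178 normalised counts per kb in EmcOE brains and 1822 ± 84.8 in Control brains. *unc-13* then stood at 1705.5 ± 120 in EmcOE brains and 1455 ± 171 in Control brains, above *brp*.

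The partners of the scaffold were read from 4 lists with 35 genes, all of which were tested. 4 of the 35 rose (11.4%), against the 3.57% of all features, 0 fell, against 5.12%, and 30 had a higher mean in EmcOE brains. Their median log2 fold change was 0.11. Their exons have 1047 to 11414 bases. After the length correction 2 of the 35 were called up, against 3.28% of all features, with a median of 0.052. The number called up was 0 without Control replicate 2 (2.08% of all features) and 6 without EmcOE replicate 1 (4.81%). Among 13 partners in assembly and transport, *Nlg2*, which encodes a neuroligin, a binding partner of neurexin, rose (5022 ± 294 normalised counts in EmcOE brains and 4330.3 ± 159 in Control brains, SD, n = 4 each, log2 fold change 0.21, edgeR adjusted p = 0.0285, 5645 bases of exon). After the length correction *Nlg2* was not called (log2 fold change 0.16, adjusted p = 0.0339), since its fold change fell under 0.2, and with total counts it was not called either. *Liprin-beta* (log2 fold change -0.047) and *Arl8* (-0.034), the small GTPase that carries presynaptic cargo along axons, had the lowest fold changes of that list, and neither was called.

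None of the 3 calcium channel subunit genes was called, and all had positive log2 fold changes. *cac*, the pore-forming subunit held at the active zone by the scaffold, had 6692, 7379, 7922 and 7441 normalised counts in EmcOE brains, against 6242, 5932, 7110.1 and 6991 in Control brains (log2 fold change 0.16, edgeR adjusted p = 0.179, 11923 bases of exon). *Ca-beta* had 0.16 (adjusted p = 0.137) and *stj*, an alpha2-delta subunit, 0.051 (adjusted p = 0.610). The *cac* groups overlapped, with Control replicates 1 and 2 lowest, as for *unc-13* and *RhoGAP100F*.

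Of 12 genes of vesicle fusion, *Syt7* and *Syx1A* rose and 0 fell. *Syt7*, a calcium sensor of the synaptotagmin family, had 12766, 13569.6, 12123 and 12497.5 normalised counts in EmcOE brains, against 9977, 10117, 11314 and 10649.5 in Control brains (log2 fold change 0.28, edgeR adjusted p = 0.0121). *Syx1A*, the plasma membrane SNARE, had a log2 fold change of 0.25 (adjusted p = 0.0279). Their exons have 3309 and 4164 bases, shorter than any of the 9 scaffold genes, and both were called after the length correction too, with log2 fold changes of 0.27 for *Syt7* and 0.21 for *Syx1A* (adjusted p = 0.0181 and 0.0445). *nSyb*, the vesicle SNARE, and *Rph* had the lowest values of this list (-0.065 and -0.079), neither called. Of 7 genes linked to CASK, *X11Lbeta*, an adaptor related to Mint, rose (log2 fold change 0.24, adjusted p = 0.0289, 10158 bases of exon), and after the length correction it was not called (0.14, adjusted p = 0.0733).

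Markers of cell types moved in part with the groups. The summed neuron markers (*elav*, *nSyb*, *Syt1*, *para*, *fne*) were 105930 to 114700 normalised counts in EmcOE brains and 99303 to 109900 in Control brains, and 1 of 5 (*fne*) was called up. *fne* has 9516 bases of exon and was not called after the length correction (log2 fold change 0.24, edgeR adjusted p = 0.0783). Of the 5, 4 had a positive log2 fold change, and *nSyb* had a negative one (-0.065). The 6 glial markers summed to 69319 to 77125 in EmcOE brains and 81547 to 85514 in Control brains, with *Gs2* called down. *Gs2* made up most of that sum, and the other 5 glial markers summed to 29734 to 34929.7 in EmcOE brains and 33876 to 35596 in Control brains, which overlap. Of these 5, *moody* (log2 fold change 0.039) and *wrapper* (0.076) had positive fold changes. *repo* (-0.064), *Eaat1* (-0.079) and *alrm* (-0.19) had negative ones, and none of the 5 was called. *alrm* was lower in EmcOE brains with no overlap (edgeR adjusted p = 0.0837). Hemocyte markers summed to 559 to 748 in EmcOE brains and 900.3 to 1147 in Control brains, with 2 of 2 tested (*Hml* and *NimC1*) called down. Sums for photoreceptors (0 of 5 called), fat body (1 of 4, *Fbp1*, up) and muscle (0 of 4) overlapped between the groups, and no marker was at 0 in both groups. Positive log2 fold changes were found for 0 of 5 photoreceptor, 0 of 4 muscle and 3 of 4 fat body markers. *trp*, a photoreceptor marker, was lower in EmcOE brains with no overlap (log2 fold change -0.18, edgeR adjusted p = 0.105). After the length correction *trp* was called down (-0.21, edgeR adjusted p = 0.0375). The part of these shifts in the values of the scaffold genes was not tested.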

How the data were processed

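The authors trimmed the read pairs, mapped them with STAR 2.7.4a to BDGP6 (release 32) and counted pairs per gene with featureCounts 2.0.1 without strand, and the deposited table holds these raw counts beside each feature's exon length. Pairs had to map at both ends. All 8 sample columns were matched to labels (0 unmatched). With R 4.3.3, edgeR 4.0.16 and TMM factors, features averaging 20 or more normalised counts in either group were tested (quasi-likelihood, Benjamini-Hochberg). DESeq2 1.42.0 was an alternative. The standard error is the log2 fold change over the root of F. Length correction removed each sample's lowess trend (span 0.3). Levels between genes are normalised counts per kb, which order genes within a sample as TPM does. Correlations used log2 normalised counts with a pseudocount of 0.5.

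Totals were 20751513 to 41619980 counts per sample. Replicates are described as biological in the study, and pairs within a group differed by 12.5 to 80.8 times the counting noise, as chi-square over degrees of freedom, so variation between replicates and not depth limits the precision. Named were all scaffold genes, from the lists the genes called and some of those with the 2 largest or 2 smallest fold changes, and the 5 features most alike in pattern. Other named genes are markers, *emc* and *da*, and overlapping features. The scaffold genes and lists were chosen with earlier results of these data known. edgeR was tested on simulated data. Sequences were not used here. Alternatives were other scalings, filters and tools, the replicate block, the length correction and leaving out each sample.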

Additional observations from a re-analysis of the deposited data

Results flagged for a closer look

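*Fife* in EmcOE brains had 1 sample far from the others. EmcOE replicate 1 had 8377 normalised counts, and the other EmcOE samples had 9974, 10275 and 10236. The gap to the nearest sample was 0.841 of the group's range, over Dixon's 95% critical value for 4 samples. Of the 18 sets of 4 samples looked at (9 genes in 2 groups), this was the only one over it, and chance flags about 1 in 20. Without that sample the *Fife* log2 fold change was 0.15, against 0.090 with it.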

How the results depend on the processing

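Fold changes of the 9 genes were positive in 142 of 144 values over 16 alternatives. The exceptions were *Rim* (-0.032) and *Fife* (-0.013) after the length correction. Under that correction 0 genes were called up (3.28% of all features), against 1 in the fit reported (3.57%). The number called up was 3 with total counts (4.22% of all features), 2 with no filter on low counts (2.08%) and 3 with DESeq2 (4.09%). With total counts and with DESeq2 the 3 were *brp*, *RhoGAP100F* and *CASK*. With single samples left out it was 4 without EmcOE replicate 1 (4.81%) and 0 without any other sample (2.08% to 3.02%). Without EmcOE replicate 1, 8 genes had all EmcOE samples above all Control samples, against 1 with it. Of all features 14.2% did so without it and 8.51% with it, but it was left out as the lowest sample for these genes. With the replicate block edgeR called 3 (*brp*, *RhoGAP100F*, *CASK*), against 3.33% of all features, and DESeq2 4 (with *unc-13*), against 3.51%. Same-numbered samples did not deviate together over the tested features (correlations -0.488 to 0.148, and 1 of 4 numbers was best matched to itself). These 4 correlations cannot settle whether the numbers pair the samples. With the block the edgeR standard errors of all 9 genes were lower, as for *unc-13* at 0.058, against 0.085 without it. Features called down were 501 in the fit reported, 272 with total counts and 323 without Control replicate 2, and features called up were 349 in the fit reported, 204 without Control replicate 2 and 229 without Control replicate 1. The cause of these differences was not tested.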
